A study of Mus musculus with 8 samples.

Results

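The genes described here copy DNA and divide the cell. They are 50 named genes of the 13420 listed in the read count table, taken by symbol, and all 50 were present. Of these, 20 act in DNA replication, 28 act in mitosis and 2 are cyclins of the G1 phase (Ccnd1 and Ccne1). The rule takes rows by symbol, but the members and gene lists were chosen with earlier results of these data known. Their counts and medians are therefore descriptions. The question was how replication genes compared with mitosis genes in wild-type (WT) and cancer intestinal cells grown pure or in competition.

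Organoids are small epithelial structures grown from intestinal stem cells in a gel. The WT organoids came from C57BL/6 mice with the mTmG transgene, whose membrane-bound red protein allows sorting. The cancer organoids, strain C57BL/6 (F6), carried Villin-CreERT2, Apc fl/fl and Tr53 fl/R172H among their alleles, so that recombination was driven in the intestinal epithelium, and they expressed Dendra2 for sorting. Mixed organoids were made from 2 parts WT to 1 part cancer, and on day 3 after mixing live WT and cancer cells were sorted from pure and mixed cultures. The labels give the same genotype for all WT and for all cancer libraries, so each cell type stands for that genotype alone. Each of the 4 groups has 2 libraries, named here by well. Pure WT cells are A01 and A05, mixed WT cells A02 and A06, pure cancer cells A03 and A07, and mixed cancer cells A04 and A08. The labels do not say whether the libraries of a group came from separate cultures, so every p-value measures only the spread between these libraries, which may be technical.

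A cell makes its replication genes together late in G1 and in S phase. The Mcm2 to Mcm7 proteins form the ring-shaped helicase that Cdc6 and Cdt1 load on DNA, Pcna is the sliding clamp, and Rrm1 and Rrm2 form the enzyme that makes deoxynucleotides. E2F factors drive many of these genes. Mitosis genes peak later, in G2 and M phase, and include Cdk1 with its cyclins, the Aurora and Polo kinases, and Ube2c and Cdc20, which work with the anaphase-promoting complex. Many of them carry a promoter element called CHR, bound by the DREAM and B-Myb complexes. In the small intestine both sets are active in the crypt, where stem and transit-amplifying cells divide.

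Promoter windows of RefSeq on GRCm38, 250 bases before to 50 bases after the gene start, were found for 42 of the 50 genes. Both strands were searched for 4 E2F words (TTTCCCGC, TTTGGCGC, TTTCGCGC and TTTGCCGC) and for 2 CHR words (TTTGAA and TTCGAA). No E2F word contains a CHR word, but E2F words on opposite strands can overlap each other. E2F words stood in 10 of 17 replication genes (58.8%) and in 2 of 24 mitosis genes (8.33%), against 2.6% of all 27025 genes with a window. CHR words stood in 19 of 24 mitosis genes (79.2%) and in 4 of 17 replication genes (23.5%), against 21.7% of all genes. The gene sets thus differed in their promoter words as well as in their roles. A match describes the letters and is not a measured binding site. The stretches below are from the 3 genes of each set with the most reads among those with a match wholly before the start. They show the words that set the groups apart, in capitals (E2F words in the Mcm7, Mcm5 and Dnmt1 stretches, CHR words in the others and also in Mcm7, and both in Cdk1). Each reads 5′ to 3′ on the strand of its gene.
Mcm7, chr5:138172011-138172086, minus strand: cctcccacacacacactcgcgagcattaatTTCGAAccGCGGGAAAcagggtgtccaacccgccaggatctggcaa
Mcm5, chr8:75109326-75109397, plus strand: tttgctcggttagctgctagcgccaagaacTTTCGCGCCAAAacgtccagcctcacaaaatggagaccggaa
Dnmt1, chr9:20952805-20952872, minus strand: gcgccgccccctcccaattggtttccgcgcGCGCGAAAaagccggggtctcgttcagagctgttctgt
Cdk1, chr10:69352913-69353073, minus strand: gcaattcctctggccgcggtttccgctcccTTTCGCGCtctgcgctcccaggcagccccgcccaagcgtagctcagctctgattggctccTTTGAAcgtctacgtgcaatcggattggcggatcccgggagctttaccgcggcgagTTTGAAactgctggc
Ube2c, chr2:164769870-164769928, plus strand: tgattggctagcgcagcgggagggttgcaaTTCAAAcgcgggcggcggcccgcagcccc
Cdc20, chr4:118437344-118437391, minus strand: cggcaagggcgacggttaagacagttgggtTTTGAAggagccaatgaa

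**Figure D1:**
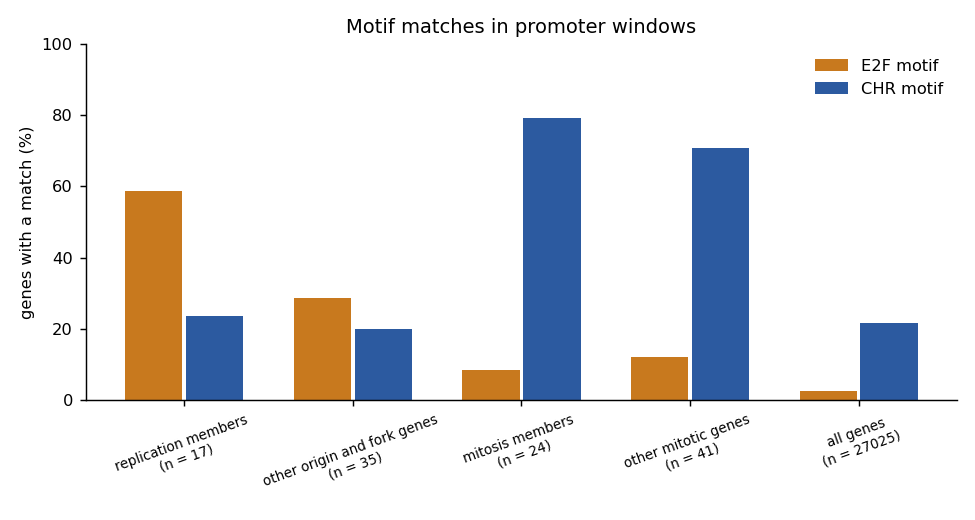
Share of genes (%) with an E2F word (orange) or a CHR word (blue) in the promoter window, for the gene sets and all genes, with the number of genes under each. E2F words stand in 58.8% of the replication members and CHR words in 79.2% of the mitosis members.

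Depth differed 64.7-fold between libraries, from 73109 reads on genes in A02 to 4733121 in A04. Library A02 stood apart, with 26.1% of the 5264 tested genes at 0 reads, and 3 reads there equal 39.3 CPM (counts per 1e+06 reads on genes, scaled with TMM factors), against 0.587 CPM in A04. Values that rest on A02 are therefore given per library. Intervals given for reads treat each read as a separate count and cover counting error only. Reads include amplification copies, with 2.27 (A02) to 6.84 (A04) reads per barcode, so these intervals are too narrow. Trp53, a targeted gene, had 178 and 324 CPM in pure WT cells, 13.1 and 174 CPM in mixed WT cells, 5.25 and 71.8 CPM in pure cancer cells and 67.3 and 46.7 CPM in mixed cancer cells. Enterocyte markers, 9 genes, summed to between 1561 and 1895 CPM in the WT libraries and to at most 15.7 CPM in the cancer libraries, with 7 of the 9 at 0 in A03 and in A07 and all 9 at 0 in A08.

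Of the 50 genes, 37 passed the filter on low counts: 17 replication genes, Ccnd1 and 19 mitosis genes. The 13 others were Mcm4, Pole, Hells, Ccne1, Bub1, Bub1b, Kif11, Kif23, Prc1, Hmmr, Cenpe, Cenpf and Smc4. None of them exceeded 42 reads in a WT library. Mcm4, the one helicase subunit among them, had 10 reads in A01, 42 in A05, 1 in A02 and 0 in A06. Prc1, a spindle midzone protein, gave 20 and 38 reads in A01 and A05, 0 in A02 and 7 in A06. Scaled for depth, these are 18.3 and 21.4 CPM against 0 and 15.9 CPM. The summed levels below include all members, tested or not.

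In WT cells grown with cancer cells, summed replication transcripts were lower than in pure WT cells. The 20 replication genes together gave 1765 and 2008 CPM in the pure WT libraries, and 1232 (A02) and 555 (A06) CPM in the mixed WT libraries. The means were 1886 ± 172 and 894 ± 479 CPM (SD, n = 2 each). The 28 mitosis genes together gave 1832 and 1939 CPM in pure WT cells and 1285 and 1013 CPM in mixed WT cells, with means of 1886 ± 75.6 and 1149 ± 192 CPM. For both sets each mixed library was below each pure library. In bulk samples, fewer cycling cells and less transcript per cycling cell cannot be told apart.

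**Figure D2:**
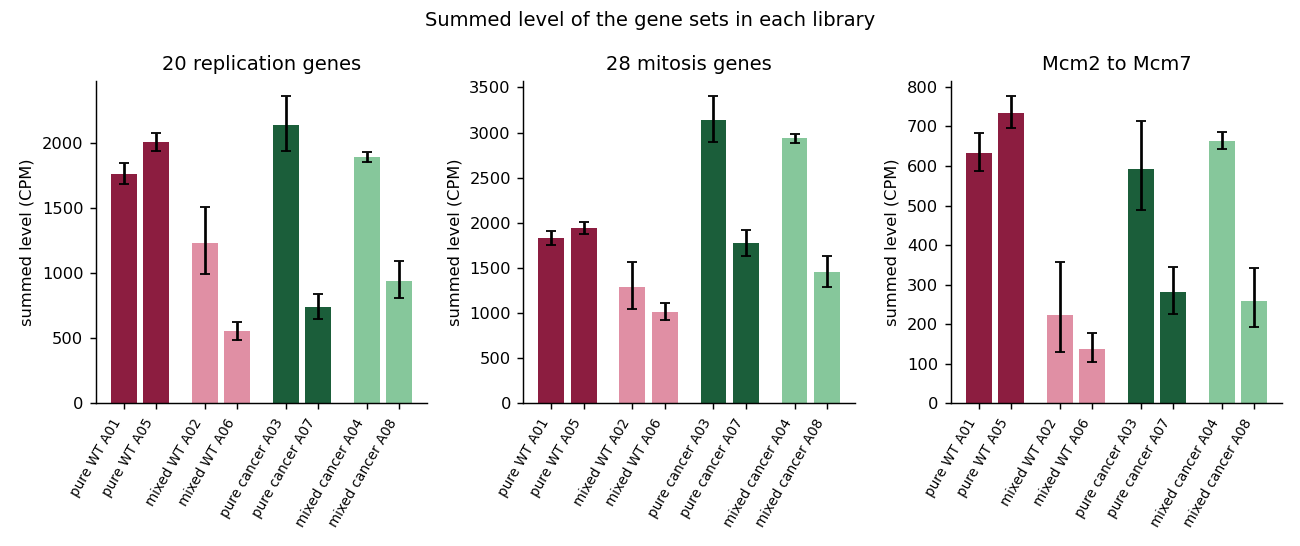
Summed level (CPM) of the replication genes, the mitosis genes and Mcm2 to Mcm7 in each of the 8 libraries, coloured by group. Error bars are exact 95% Poisson intervals of the reads. Both mixed WT libraries lie below both pure WT libraries in all panels, and the pure and mixed cancer libraries overlap.

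The helicase genes showed the same order. Mcm2 to Mcm7 together had 634 CPM (95% interval 588 to 683) in A01 and 735 CPM (695 to 776) in A05. In mixed WT cells they had 223 CPM (130 to 357) in A02 and 138 CPM (106 to 178) in A06. These are 17 and 61 reads (12 and 44 barcodes) in the mixed libraries, against 693 and 1307 reads in the pure ones. The intervals of the groups do not overlap, but they take no account of amplification copies. The means were 684 ± 71 and 181 ± 59.9 CPM.

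Gene by gene, edgeR's quasi-likelihood test with Benjamini-Hochberg adjustment called 0 of 37 members between mixed and pure WT cells, where 0.741% of all tested genes were called, and DESeq2 also called 0. At an unadjusted p under 0.05, 8 replication and 3 mitosis genes were lower and none was higher, against 4.67% of all tested genes that were lower by this rule. The median log2 fold change was -1.46 over the 17 replication genes tested and -0.65 over the 19 mitosis genes, against -0.10 over all tested genes, and the difference between the sets was not tested. Counted from molecule barcodes in place of reads, 6 members were called, all lower: Mcm2, Mcm3, Mcm5, Lig1, Rrm1 and Birc5. In that fit 93 of all 4268 tested genes were called. The count thus turned on the measure used, while the direction of the medians did not.

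Among the helicase and licensing genes, all 8 tested had a negative log2 fold change, against 54.9% of all tested genes. Mcm5 (chr8:75109569-75128439) had 137 and 171 CPM in pure WT cells and 52.4 (A02) and 15.9 (A06) CPM in mixed WT cells. Its log2 fold change was -2.61 (SE 0.756, adjusted p = 0.13, edgeR). Mcm3 had 88.8 and 70.3 CPM in pure WT cells, no read in A02 and 9.06 CPM in A06, a log2 fold change of -3.43 (SE 1.03, adjusted p = 0.148, edgeR). The groups did not overlap for either gene.

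Mcm2 had 111 and 86.6 CPM in pure WT cells against 39.3 and 13.6 CPM in mixed WT cells, and Mcm7 had 197 and 257 against 26.2 and 63.4 CPM. Mcm6 overlapped between the groups, with 91.8 CPM in A02, level with the 91.5 CPM of A01, and 36.2 CPM in A06. So did the untested Mcm4, with 13.1 CPM from 1 read in A02 against 9.15 CPM in A01. Mcm7 reads need care, since 22.8% of the 50-base windows near its end also occur in the locus Gm5487 and the neighbouring Cops6 overlaps its end on the other strand. The loaders were less far apart, with a log2 fold change of -1.39 for Cdc6, which rests on 3 reads in mixed WT cells (ratio 0.347, 95% interval 0.0691 to 1.08), and -1.20 for Cdt1, whose end overlaps Gm20388 on the same strand.

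The genes that work at the fork differed more among themselves. Lig1, the ligase that joins Okazaki fragments (chr7:13277283-13311433), had 96.1 and 95.6 CPM in pure WT cells, no read in A02 and 11.3 CPM in A06. Its log2 fold change of -3.39 (SE 0.954, adjusted p = 0.123, edgeR) had the lowest p among the members. Prim1, the small primase subunit, gave 28 and 116 reads in the pure WT libraries but 0 and 1 in the mixed ones, which gives a ratio of 0.0385 (95% interval 0.000969 to 0.218). Pcna had 395 and 412 CPM in pure WT cells against 301 and 127 CPM in mixed WT cells, a smaller gap with a log2 fold change of -1.02. Fen1, the flap endonuclease, had 184 CPM in A02, above the 128 and 120 CPM of pure WT cells, and 20.4 CPM in A06.

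The subunits of ribonucleotide reductase differed from each other. Rrm1, the large subunit (chr7:102441695-102469771), had 43 and 55.6 CPM in pure WT cells, no read in A02 and 6.8 CPM in A06, 3 reads in all, for a ratio of 0.114 (95% interval 0.0232 to 0.34). Rrm2, the small subunit, had 115 and 172 CPM in pure WT cells, 367 CPM in A02 and 99.7 CPM in A06, and its log2 fold change was 0.55 (SE 0.713, adjusted p = 0.869, edgeR). The 28 Rrm2 reads in A02 carried only 3 different molecule barcodes, whereas 23 Pcna reads there carried 16. Rrm2, Pcna and Fen1 made up 65 of the 94 replication reads of A02 (69.1%), while the 3 leading genes made up 41.3% and 41.9% in pure WT cells. Of the genes that maintain DNA methylation on new strands, Dnmt1 had 73.2 and 111 CPM in pure WT cells against 13.1 and 40.8 CPM in mixed WT cells, with a log2 fold change of -1.49.

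The mitosis genes had a median nearer to 0 in mixed against pure WT cells, but with a minimum count of 50 the medians were close, at -0.89 for replication and -0.78 for mitosis genes. Cdk1, the kinase that starts mitosis and the mitosis gene with the most reads, had 441 and 397 CPM in pure WT cells and 236 and 217 CPM in mixed WT cells. The groups did not overlap, and the log2 fold change was -0.90 (SE 0.503, adjusted p = 0.61, edgeR). Ube2c, the ubiquitin-conjugating partner of the anaphase-promoting complex, had 287 and 329 against 131 and 213 CPM, and Cenpa, the centromeric histone, had 210 and 170 against 78.6 and 116 CPM. Cks2, a Cdk1-binding subunit, overlapped between groups with 167 and 275 against 315 and 159 CPM, and 39.9% of its end windows also occur in the loci Gm12891, Gm15452 and Gm19945.

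The most negative log2 fold changes of the mitosis set were those of Birc5 and Aurkb, of the chromosomal passenger complex, and of Ncapd2. Birc5 (survivin) had 131 and 107 CPM in pure WT cells, no read in A02 and 27.2 CPM in A06, a log2 fold change of -2.54 (SE 0.841, adjusted p = 0.228, edgeR). Aurkb, the kinase of the same complex, gave 47 and 38 reads in the pure WT libraries but 0 and 3 in the mixed ones (ratio 0.196, 95% interval 0.0396 to 0.592). Ncapd2, a condensin subunit, had 48.5 and 79.8 CPM in pure WT cells, no read in A02 and 22.7 CPM in A06, a log2 fold change of -1.92 (SE 0.845, adjusted p = 0.442, edgeR). Smc2, another condensin subunit, gave 10 reads in each pure WT library, 3 in A02 and 0 in A06 (ratio 0.832, 95% interval 0.158 to 2.81). In CPM these are 9.15 and 5.62 in pure WT cells, 39.3 in A02 and 0 in A06. The fitted Smc2 log2 fold change was positive, at 0.41. The proliferation marker Mki67 was too low to read, at 6 and 11 reads in the pure WT libraries, 4 in A02 and 0 in A06, and 14.4% of its end windows are shared with Gm44521. Its fitted log2 fold change was also positive, at 1.24, with 52.4 CPM in A02 against 5.49 and 6.18 CPM in pure WT cells.

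**Figure D3:**
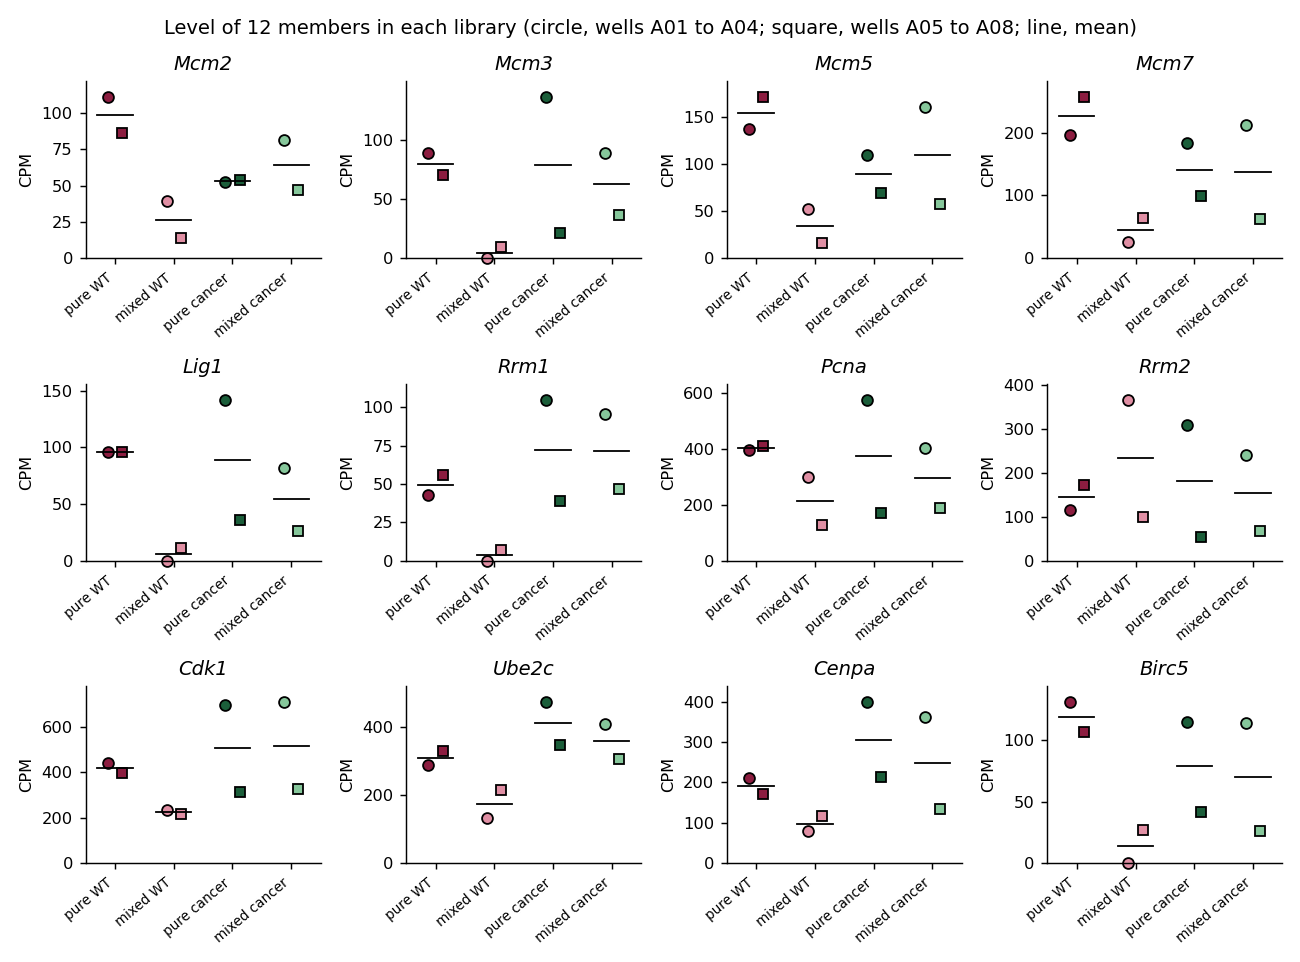
Level (CPM) of 12 members in each library by group, with circles for wells A01 to A04, squares for wells A05 to A08 and a line at the group mean (n = 2). Mcm2, Mcm3, Mcm5, Mcm7, Lig1 and Rrm1 are lower in both mixed WT libraries than in both pure WT libraries, and Rrm2 is not.

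The weight of each mixed WT library differed. A06 was below both pure WT libraries for 17 of 17 tested replication genes and 17 of 19 mitosis genes, where 39.8% of all tested genes were. A02 was below both for 12 of 17 and 12 of 19, where 59.5% of all tested genes were, so the A02 counts were near the background. Both mixed libraries were below both pure libraries for 12 replication and 10 mitosis genes, against 28.8% of all tested genes. Without A02 the median log2 fold change was -1.89 for replication and -1.02 for mitosis genes, against -0.09 over all tested genes. Without A06 the medians were -1.59 and -0.91, against -0.74 over all tested genes. Without the pure cancer library A03 they were -1.53 and -0.74, against -0.15. Without A07 they were -1.49 and -0.71, against -0.11, and without A08 -1.50 and -0.73, against -0.11. The set of genes tested also changed, to 6798 without A03 and 6740 without A07, and its part in these values was not tested.

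Lists of other marker genes were also compared between mixed and pure WT cells. Stem cell markers, 7 genes, summed to 567 and 850 CPM in pure WT cells and 354 and 329 CPM in mixed WT cells. Of the 6 tested, 5 had a negative log2 fold change, none called, against 54.9% of all tested genes with a negative one. Lgr5, Olfm4 and Axin2 were at 0 in A02 and Olfm4 was at 0 in A06. Enterocyte markers stood at 1895 and 1750 CPM in pure WT cells and 1861 and 1561 CPM in mixed WT cells, 6 of the 7 tested had a negative log2 fold change, none called lower, and Sis and Anpep were at 0 in both mixed libraries. Fetal-like and repair markers, 7 genes, summed to 371 and 291 CPM in pure WT cells and 1992 and 4295 CPM in mixed WT cells, with 3 of 7 called higher. Of all 5264 tested genes, 34 were called higher and 5 lower. Wnt targets raised by loss of Apc, 6 genes, summed to 179 and 259 CPM in pure WT cells and 13.1 and 92.9 CPM in mixed WT cells, none called. Of the 5 tested, 4 had a negative log2 fold change and 1 a positive one, of 2.29. Lgr5 and Axin2 are in both this list and the stem cell list, so the lists are not separate. Epithelial markers, 8 genes, summed to 6113 and 5738 CPM in pure WT cells, 5663 CPM in A02 and 15417 CPM in A06, with none called. The part of these cell states in the replication result was not tested.

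The cyclin that acts first in the cycle had a positive log2 fold change, unlike most replication genes. Ccnd1, which partners Cdk4 and Cdk6 in G1, had 92.4 and 142 CPM in pure WT cells and 184 and 179 CPM in mixed WT cells, with a log2 fold change of 0.62 (SE 0.482, adjusted p = 0.746, edgeR). Its end overlaps a gene on the opposite strand, LTO1. Ccne1, the cyclin of the step into S phase, gave 29 and 31 reads in A01 and A05, 0 in A02 and 3 in A06. Scaled for depth, these are 26.5 and 17.4 CPM against 0 and 6.8 CPM.

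In cancer cells the pure and mixed libraries overlapped. The replication genes together gave 2141 and 742 CPM in pure cancer cells and 1895 and 944 CPM in mixed cancer cells, means of 1442 ± 989 and 1420 ± 673 CPM. The mitosis genes gave 3139 and 1772 CPM in pure and 2936 and 1458 CPM in mixed cancer cells, means of 2455 ± 966 and 2197 ± 1045 CPM. Within each group the libraries differed more than the groups did, with A03 above A07 and A04 above A08 in both sets. Fetal-like and repair markers ran the other way, at 5653 and 5417 CPM in A03 and A04 and at 10275 and 10675 CPM in A07 and A08. Their part in the spread was not tested.

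No member was called between mixed and pure cancer cells by edgeR or by DESeq2, nor was any other gene (0%). At an unadjusted p under 0.05 the members gave 0 of 37, against 1.31% of all tested genes. The median log2 fold change was 0.23 over the replication genes and 0.03 over the mitosis genes, with 0.03 over all tested genes. These medians turned negative without A04 (-0.70 and -1.0) and without A07 (-0.39 and -0.38), and the mitosis median also with a minimum count of 50 (-0.18) and from only the 4 cancer libraries (-0.04). Cdk1, for example, had 698 and 314 CPM in pure and 710 and 327 CPM in mixed cancer cells, and Pcna had 577 and 171 against 403 and 187 CPM. Mcm5 had 110 and 68.8 against 161 and 57.1 CPM, a log2 fold change of 0.40 (SE 0.616, adjusted p = 1, edgeR).

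The lowest p-values in this comparison were those of Ncapd2 and Fen1. Ncapd2 had 15.7 and 12 CPM in pure cancer cells and 46.6 and 36.3 CPM in mixed cancer cells (log2 fold change 1.65, SE 0.878, adjusted p = 1, edgeR). Fen1 had 15.7 and 15 CPM in pure and 57.7 and 25.9 CPM in mixed cancer cells (1.58, SE 0.895, adjusted p = 1, edgeR). Both mixed libraries were above both pure ones for Fen1, Cdt1, Dnmt1 and Ncapd2, which is 3 of 17 replication and 1 of 19 mitosis genes, against 13.8% of all tested genes.

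The change on mixing was then compared between WT and cancer cells as an interaction. No member was called by edgeR, where 0.076% of all tested genes were, and DESeq2 also called 0. At an unadjusted p under 0.05, 9 replication and 3 mitosis genes had a more negative change in WT cells and none a more positive one, against 3.93% of all tested genes with a more negative change. The median difference in log2 fold change was -2.20 for replication genes and -0.66 for mitosis genes, against -0.17 for all tested genes. Mcm5 had the lowest p, with a difference of -3.0 (SE 0.977, adjusted p = 0.47, edgeR), followed by Ncapd2 with -3.56 (SE 1.22, adjusted p = 0.509, edgeR). The Mcm5 interaction was called from barcode counts, where 23 of 4268 tested genes were called. Without A03 the differences were -5.18 for Mcm3 and -7.57 for Prim1. Pure cancer cells then rest on A07 alone, with 7 Mcm3 reads and 1 Prim1 read. Mixed WT cells had 0 and 4 Mcm3 reads and 0 and 1 Prim1 reads, so these sizes rest on very few reads. The mitosis median turned to 0.24 without A04.

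**Figure D4:**
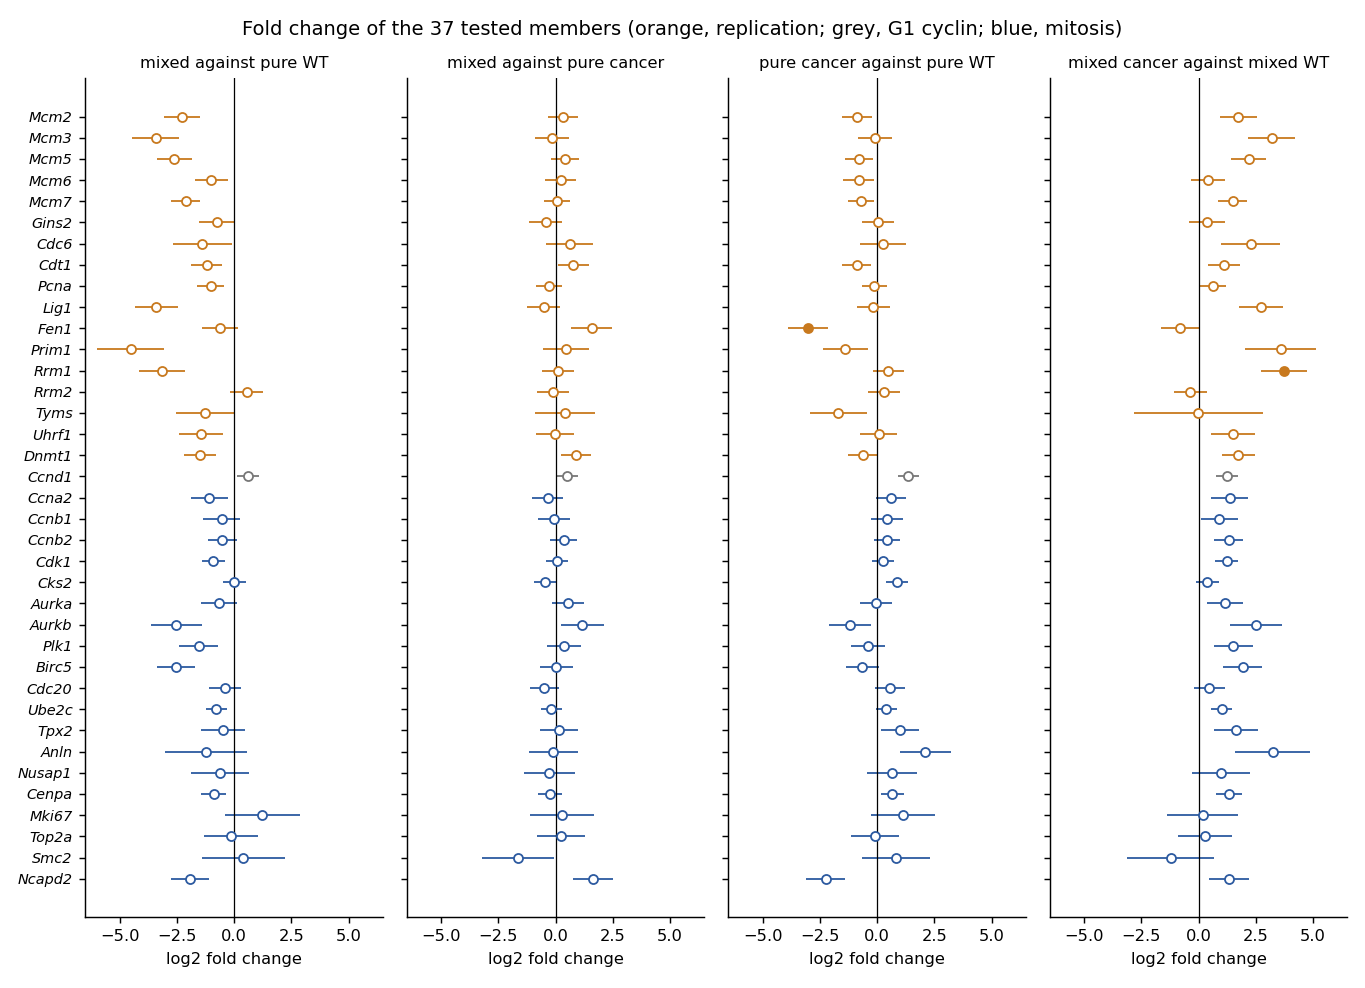
log2 fold change with its standard error (edgeR) for the 37 tested members in 4 comparisons, in orange for replication genes, grey for Ccnd1 and blue for mitosis genes. Filled points are called at an adjusted p under 0.05 (Fen1 in pure cancer against pure WT cells, Rrm1 in mixed cancer against mixed WT cells). Replication genes lie mostly left of 0 in mixed against pure WT cells and on both sides of 0 in mixed against pure cancer cells.

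Between pure cancer and pure WT cells the sets had medians of opposite sign. The replication genes had a median log2 fold change of -0.63 and the mitosis genes one of 0.45, against -0.05 for all tested genes. Both pure cancer libraries were below both pure WT libraries for 7 of 17 replication and 2 of 19 mitosis genes, where 29.4% of all tested genes were. Both were above for 0 of 17 replication and 8 of 19 mitosis genes, where 23.2% were. The mitosis median was -0.14 without A03, and the replication median was between -1.36 and -0.23 without each library in turn. The value of -0.23, without A07, stood beside a median of -0.33 over all tested genes. Enterocyte markers were nearly absent from the cancer libraries. Fetal-like markers summed to 5653 and 10275 CPM in pure cancer against 371 and 291 CPM in pure WT cells. Of these 7 markers, 6 were called higher and 1 was called lower (log2 fold change -4.70), against 269 and 255 of 5264 tested genes. The part of these marker differences in the medians was not tested.

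One member was called between pure cancer and pure WT cells, where 9.95% of all tested genes were called. Fen1 (chr19:10199132-10204169), which cuts the flaps on Okazaki fragments, fell in cancer cells. It had 128 and 120 CPM in pure WT cells and 15.7 and 15 CPM in pure cancer cells, a log2 fold change of -3.01 (SE 0.873, adjusted p = 0.0274, edgeR). The cancer values are 3 and 5 reads with 1 and 3 barcodes, and the call was lost without A05 (adjusted p = 0.0728) and without A07 (0.0687). With each library left out in turn, the Fen1 log2 fold change was between -3.09 and -2.97.

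At an unadjusted p under 0.05, Fen1 and Ncapd2 were lower and Ccnd1 was higher, against 10.3% of all tested genes lower and 10.2% higher. Ncapd2 had 48.5 and 79.8 CPM in pure WT against 15.7 and 12 CPM in pure cancer cells (log2 fold change -2.24, SE 0.854, adjusted p = 0.109, edgeR). Ccnd1 had 92.4 and 142 against 236 and 368 CPM (1.37, SE 0.466, adjusted p = 0.0644, edgeR), and it was called higher from barcode counts, with median-of-ratios factors, with a minimum count of 50, by DESeq2 and without A06. Prim1 and Cdt1 came next among the replication genes, with log2 fold changes of -1.39 and -0.90, and Anln and Cks2 next among the mitosis genes, with 2.11 and 0.87, none with an adjusted p under 0.303.

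Between mixed cancer and mixed WT cells, 33 of 37 tested members had a positive log2 fold change, against 2896 of 5264 tested genes. The medians were 1.49 for replication and 1.22 for mitosis genes, against 0.12 for all tested genes. Rrm1 was the 1 member called, where 6.42% of all tested genes were. This large subunit of ribonucleotide reductase rose from 0 reads in A02 and 6.8 CPM in A06 to 95.7 and 46.7 CPM in mixed cancer cells (log2 fold change 3.74, SE 1, adjusted p = 0.0219, edgeR). With 3 reads in mixed WT cells, the pooled ratio was 16.2 with a 95% interval of 5.51 to 78.8. The call was lost without A04 (adjusted p = 0.248) and without A06 (0.123). With each library left out in turn, the Rrm1 log2 fold change was between 3.01 and 9.57.

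Unadjusted p was under 0.05 for 8 replication genes, Ccnd1 and 5 mitosis genes, all higher in mixed cancer cells, against 7.94% of all tested genes higher. Both mixed cancer libraries were above both mixed WT libraries for 10 of 17 replication and 9 of 19 mitosis genes, against 26.5% of all tested genes. Mcm3 followed Rrm1 with a log2 fold change of 3.19 (SE 1.04, adjusted p = 0.0725, edgeR), and Mcm5 with 2.19 (SE 0.761, adjusted p = 0.0994, edgeR). Cdk1 led the mitosis genes, with 710 and 327 CPM in mixed cancer against 236 and 217 CPM in mixed WT cells (1.22, SE 0.507, adjusted p = 0.198, edgeR), ahead of Cenpa and Birc5 with 1.33 and 1.92. This comparison shares its mixed WT libraries with the one on mixing in WT cells.

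The ratio of mitosis to replication reads within a library needs no scaling between libraries. Pure WT cells had 1.04 mitosis reads per replication read in A01 and 0.966 in A05, which is a log2 ratio of 0.05 (exact 95% binomial interval -0.04 to 0.15) and -0.05 (-0.12 to 0.02). Mixed WT cells split: A06 had 1.82, a log2 ratio of 0.87 (0.64 to 1.10), while A02 had 1.04, a log2 ratio of 0.06 (-0.36 to 0.48) from 192 reads in all. In summed reads 1 of 2 mixed WT libraries thus stood above the pure WT libraries, and the A02 value rests in part on the 28 Rrm2 reads from 3 barcodes.

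All 4 cancer libraries had more mitosis than replication reads. The log2 ratios were 0.55 (0.37 to 0.74) in A03 and 1.26 (1.04 to 1.48) in A07 for pure cancer cells, and 0.63 (0.59 to 0.67) in A04 and 0.63 (0.35 to 0.90) in A08 for mixed cancer cells. Both pure cancer libraries were thus above both pure WT libraries. The intervals do not overlap, but they take no account of amplification copies. As a difference of mean log2 CPM, which weights genes equally, the ratio was -0.67 and -0.73 in pure WT cells and 0.05 (A02) and 0.09 (A06) in mixed WT cells, so that both mixed libraries lay above both pure ones. The A02 value is limited by tested genes with 0 reads there. These were Mcm3, Lig1, Prim1, Rrm1, Aurkb, Birc5, Tpx2, Anln, Nusap1 and Ncapd2, whose log2 CPM in A02 comes from a small count added before taking logs. With 2 libraries a group no two-sided permutation p can go below 0.333, so no test was made. From barcodes the ratios were 0.04 and -0.09 in pure WT, 0.30 and 0.78 in mixed WT, 0.45 and 1.06 in pure cancer and 0.29 and 0.53 in mixed cancer cells. In A04 the barcodes were close to their limit of 256 for the leading genes, with 243 barcodes from 3627 Cdk1 reads.

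**Figure D5:**
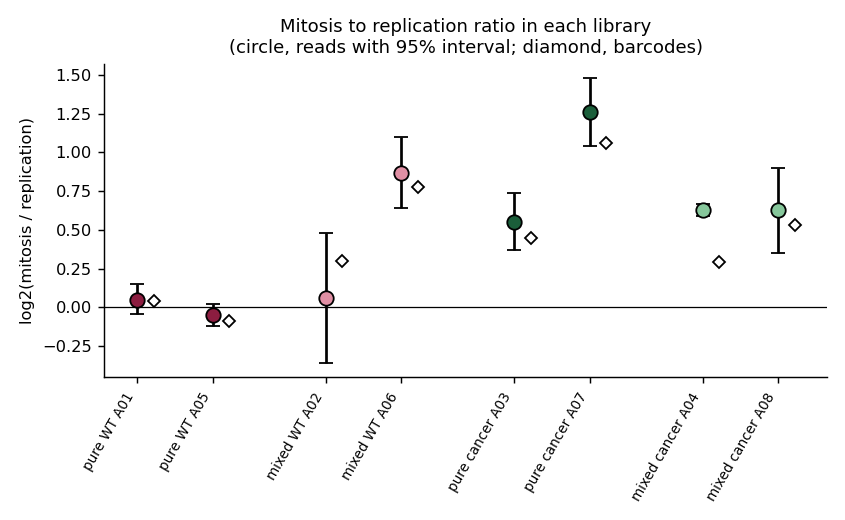
log2 ratio of mitosis to replication reads in each library (circles, with exact 95% binomial intervals, coloured by group) and of barcodes (diamonds). Pure WT libraries lie at 0.05 and -0.05, A06 at 0.87 and the cancer libraries between 0.55 and 1.26.

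Further cell cycle genes, 137 in 4 lists, were looked at beside the members, and 71 were tested. Of 43 other origin and fork genes, 24 were tested in mixed against pure WT cells, 23 with a negative log2 fold change (median -1.57). Of 51 other mitotic genes, 25 were tested and 23 were negative (median -0.62). Of the regulators of the cycle, 10 of 11 tested were negative (median -0.70), and of the cell cycle inhibitors 3 of 11 were (median 0.35). Among all tested genes 54.9% were negative. None of the 71 was called by edgeR, where 0.741% of all tested genes were. At an unadjusted p under 0.05, 17 were lower, against 4.67% of all tested genes, and 2 were higher, against 263 of 5264. The origin and fork list and the mitotic list had medians close to those of the members of the same role.

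The G1 inhibitor Cdkn1a (p21) had 278 and 74.2 CPM in pure WT cells, 367 and 834 CPM in mixed WT cells, 105 and 38.9 CPM in pure cancer cells and 133 and 62.2 CPM in mixed cancer cells. Its log2 fold change was 1.81 in mixed against pure WT cells (SE 0.604, adjusted p = 0.234, edgeR). It was lower in mixed cancer than in mixed WT cells by a called change of -2.57 (SE 0.63, adjusted p = 0.0115, edgeR). Ccng1, a p53 target, was also called lower there, with 17.6 and 20.7 CPM against 288 and 99.7 CPM.

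Higher in mixed cancer than in mixed WT cells were Chaf1b, a histone chaperone subunit that follows the fork (log2 fold change 3.75, adjusted p = 0.0186, edgeR), Cks1b (2.10, adjusted p = 0.0307), the tubulin gene Tubb5 (1.53, adjusted p = 0.0155) and the repressor E2f4 (2.27, adjusted p = 0.0399). Chaf1b had 0 reads in A02 and 3 in A06, a pooled ratio of 12.2 (95% interval 4.15 to 59.6). Cdkn2a, an inhibitor of Cdk4 and Cdk6, was called higher in pure cancer than in pure WT cells (3.33, adjusted p = 0.024, edgeR), with 21 and 53.9 CPM against 6.41 and 1.69 CPM. The Cdkn2a call was lost without A01, A04, A05 or A07. Between mixed cancer and mixed WT cells 6 of the 71 genes were called, where 6.42% of all tested genes were. Without A04 or without A06, fewer of them and fewer of all tested genes were called.

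E2f1, the factor that turns on replication genes, had 48.5 and 19.7 CPM in pure WT and 39.3 and 4.53 CPM in mixed WT cells, the latter from 3 and 2 reads. Its log2 fold change was -1.39 (SE 1.13, adjusted p = 0.767, edgeR). Myc had 60.4 and 107 against 65.5 and 68 CPM (log2 fold change -0.33, SE 0.717, adjusted p = 0.94, edgeR). The pure and mixed libraries overlapped for both genes.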

How the data were processed

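Sorted cells of 8 libraries were sequenced in bulk with CEL-Seq, which reads the polyadenylated end of transcripts. The authors aligned reads to mm10 with BWA, counted them per gene with featureCounts and deposited raw read counts and counts of distinct molecule barcodes. The deposited transcript estimates, a fixed function of the barcode count, and the authors' DESeq2 1.22.2 table of fold changes and p-values for mixed against pure WT cells were not used. Read counts include amplification copies, and barcode counts stop at 256.

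Reads were compared with edgeR 4.0.16 in R 4.3.3 (filterByExpr, minimum count 10, TMM factors, quasi-likelihood test, 8 libraries in one fit, Benjamini-Hochberg over 5264 genes, threshold 0.05). Standard errors (SE) follow from the fold change and its F statistic. The fit was tested on simulated data. Where a group held 3 reads or fewer of a gene, the ratio of pooled reads is given with an exact interval. Alternatives were barcode counts, median-of-ratios factors, other filters, only the 4 libraries compared, DESeq2 1.42.0 and each library left out. One further allele of the cancer line is not reported here. The members and gene lists were chosen with earlier results of these data known. Full statistics are given for called members. The rule also allowed them for the 3 replication and 3 mitosis genes with the lowest p per comparison, and they are given for some of these only. Rrm2, Cdk1, Ccnd1, Mcm5 and others given with an SE outside that rule were chosen after their values were seen. So was Pcna, given without an SE. Positions are from GENCODE vM21 on GRCm38 (mm10), and shared windows are 50-base windows in the last 500 bases.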

Additional observations from a re-analysis of the deposited data

How the results depend on the processing

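The medians of the replication genes kept their sign under all alternatives for mixed against pure WT cells (-1.89 to -0.89), the interaction (-2.89 to -1.71), pure cancer against pure WT cells (-1.36 to -0.23) and mixed cancer against mixed WT cells (0.54 to 1.80). With a minimum count of 50, which drops low genes, the first was -0.89 and the last 0.54, beside mitosis medians of -0.78 and 1.19. The number of members called was less stable. For mixed against pure WT cells it was 0, but 6 from barcode counts, 2 with no filter and 5 from only the 4 libraries. Of all tested genes those fits called 93 of 4268, 68 of 13416 and 108 of 5738, against 39 of 5264. For the interaction it was 1 from barcode counts, where 23 of 4268 tested genes were called. For pure cancer against pure WT cells it was 1, but 3 from barcode counts and 2 with median-of-ratios factors or DESeq2. Of all genes those fits called 620 of 4268, 542 of 5264 and 467 of 13416, against 524 of 5264. For mixed cancer against mixed WT cells it was 1, but 4 from barcode counts and 2 with no filter. It was 0 with a minimum count of 50, where Rrm1 was not tested. Of all genes those fits called 354 of 4268, 418 of 13416 and 151 of 1543, against 338 of 5264. The number of members called also changed with single libraries left out, as did the number of genes tested. Fen1 missed the threshold at a minimum count of 50 (adjusted p = 0.0867, edgeR). The causes were not tested. Of other cell cycle genes, barcode counts called 4 in mixed against pure WT cells and 3 in pure cancer against pure WT cells, in place of 0 and 1. With a library left out the counts ran from 0 to 2 in mixed against pure WT cells, 0 to 3 in the interaction, 0 to 3 in pure cancer against pure WT cells and 1 to 9 in mixed cancer against mixed WT cells.

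The log2 ratio of mitosis to replication depended on how genes were weighted. As a difference of mean log2 CPM, which weights genes equally, it was -0.67 in A01, -0.73 in A05, 0.05 in A02, 0.09 in A06, -0.03 in A03, 0.59 in A07, 0.02 in A04 and -0.40 in A08. Without 6 genes that also act outside mitosis it was -0.07 in A01, -0.21 in A05, -0.23 in A02, 0.80 in A06 and 0.51 in A04. By this list A02 lay below both pure WT libraries and A06 above them. In A04 the log2 ratio was 0.29 from barcodes and 0.58 without Pcna and Cdk1. With the E2F core GGCGGGAA in place of the 4 words, 23.5% of the replication genes had a match, against 0% of the mitosis genes and 2.52% of all genes. No paired analysis was possible because the labels give no replicate numbers that groups share, and the order of the wells was not taken as a pairing. The depth of A02 limits every value for mixed WT cells, since 3 reads there equal 39.3 CPM.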
